A study of Gallus gallus with 9 samples.

Results

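Lysosomal genes were followed in DF-1 cells, a spontaneously immortal fibroblast line from chicken embryos, as 47 of the 15294 genes in the deposited expression table. They were chosen by symbol. Of 30 named genes for lysosomal enzymes, their helpers and lysosomal membrane proteins, 26 were found, and NEU1, MAN2B1, GRN and FUCA1 were not analysed here. Every row whose symbol begins with ATP6V0, ATP6V1 or ATP6AP was added, which gave 21 genes of the proton pump. The series holds 3 groups of 3 libraries, labelled 2D, 3D_E and 3D_L, all from wild-type DF-1 cells with no other genotype or treatment in the labels. The series describes the passage of these cells from attached growth (2D) to suspension without carriers (3D_E and 3D_L). E and L are not spelled out in the labels, which also name no time point. DF-1 is 1 cell line, so every library shares 1 origin, and genetic differences between the groups were not tested.

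Lysosomes are acidic organelles that break down proteins, lipids, glycans and glycogen delivered by endocytosis, phagocytosis and autophagy. Their hydrolases work only at low pH, which the vacuolar ATPase keeps by pumping protons. Its V1 part sits in the cytosol and splits ATP, and its V0 part lies in the membrane and carries the protons. In mammals, the transcription factors TFEB, TFE3 and MITF bind a shared promoter element of many lysosomal genes and raise them together when nutrient signalling through mTOR is low. Fibroblasts depend on lysosomes to turn over collagen and other matrix that they take up.

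Values are FPKM, fragment counts scaled by transcript length and by library size, as the authors deposited them. A value with ± is a group's mean and SD (n = 3 libraries). A change is a difference in log2(FPKM + 1), which understates the change of low genes, and SE is its standard error. A gene rose or fell where limma gave an adjusted p under 0.05 over the 10436 genes tested. Read depth is unknown, since the table holds no counts. Whether a group's libraries stem from separate cultures is not labelled, so the p-values reflect library-to-library spread, which may be technical. In bulk RNA, a change in the share of cells that express a gene and a change in RNA per cell cannot be told apart.

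The libraries summed to between 641334 and 738281 FPKM. Of 15 fibroblast markers 13 were at or above 1 FPKM in every 2D library, 14 in 3D_E and 14 in 3D_L, and PDGFRA was below 1 throughout. In 3D_E 5 of the 14 tested rose, near the 36.1% of all tested genes, and 2 fell (32.1% of all tested genes). In 3D_L 8 rose and 4 fell (20.3% and 16.2% of all tested genes). Vimentin (VIM) measured 319.9 ± 11.8 in 2D, 2581 ± 419 in 3D_E and 1899 ± 106 in 3D_L, and the collagen gene COL1A1 839 ± 162, 472 ± 190.2 and 252 ± 3.68. The 7 epithelial markers found were also below 1 in every library. Of the endothelial markers, 4 of 8 were below 1 in every library. Of the 4 tested, 1 rose and 2 fell in 3D_E (36.1% and 32.1% of all tested genes). In 3D_L 2 rose and 0 fell (20.3% and 16.2%). The transcription factor ERG measured 122 ± 5.96, 52.8 ± 16.1 and 122 ± 15.4, the cadherin CDH5 6.79 ± 0.113, 1.51 ± 0.393 and 9.83 ± 0.297, and PECAM1 0.2 ± 0.0755, 1.74 ± 0.62 and 0.75 ± 0.0361. PECAM1, the 1 that rose in 3D_E, reached 1 FPKM only in that group and was tested only through it. The 3D_E libraries differed most among themselves. Over the tested lysosomal genes the root mean square SD on the log2 scale was 0.34 in 3D_E, 0.10 in 2D and 0.10 in 3D_L, against 0.29, 0.12 and 0.16 over all tested genes. The fit uses 1 spread for all groups. With libraries weighted by group, the weights being shared by all genes, 34 lysosomal genes rose in 3D_E against 2D and 35 in 3D_L, instead of 36 and 28. With only the 2 compared groups in the fit, 33 and 37 rose.

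Most lysosomal genes were higher in both suspension groups than in attached cells, and 27 of the 47 rose in both, as did 16.7% of all tested genes. Calls in either direction took in 68.2% of all tested genes in 3D_E and 36.4% in 3D_L. In 3D_E, 36 of the 47 lysosomal genes rose and 1, GUSB, fell, where 36.1% of all tested genes rose and 32.1% fell. In 3D_L, 28 rose and 0 fell, where 20.3% of all tested genes rose and 16.2% fell, and at an unadjusted p under 0.05 again 0 of them fell. Of the 47, 4 (LAPTM4B, ATP6V1C2, ATP6V1G3 and ATP6V0A4) did not reach 1 FPKM in 3 libraries and were not tested. The rises in both groups include GPNMB, LAPTM5 and ATP6V0D2, which passed this filter only through suspension libraries, so the filter favoured their rises. The median change of the 43 tested was 0.86 in 3D_E and 0.67 in 3D_L, beside 0.05 and 0.03 for all tested genes. Both comparisons use the same 2D libraries. Through the shared spread, the 3D_L count was 34 without replicate 1 of 3D_E and 35 without replicate 3. Every 3D_E library lay above every 2D library for 33 of the 43 tested genes (37.1% of all tested genes). Every 3D_L library did so for 38 of them (34.0% of all tested genes). As a share of all FPKM summed in a library, the 47 genes made up 0.468% ± 0.0117 in 2D, 1.28% ± 0.0802 in 3D_E and 0.891% ± 0.0213 in 3D_L.

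**Figure D1:**
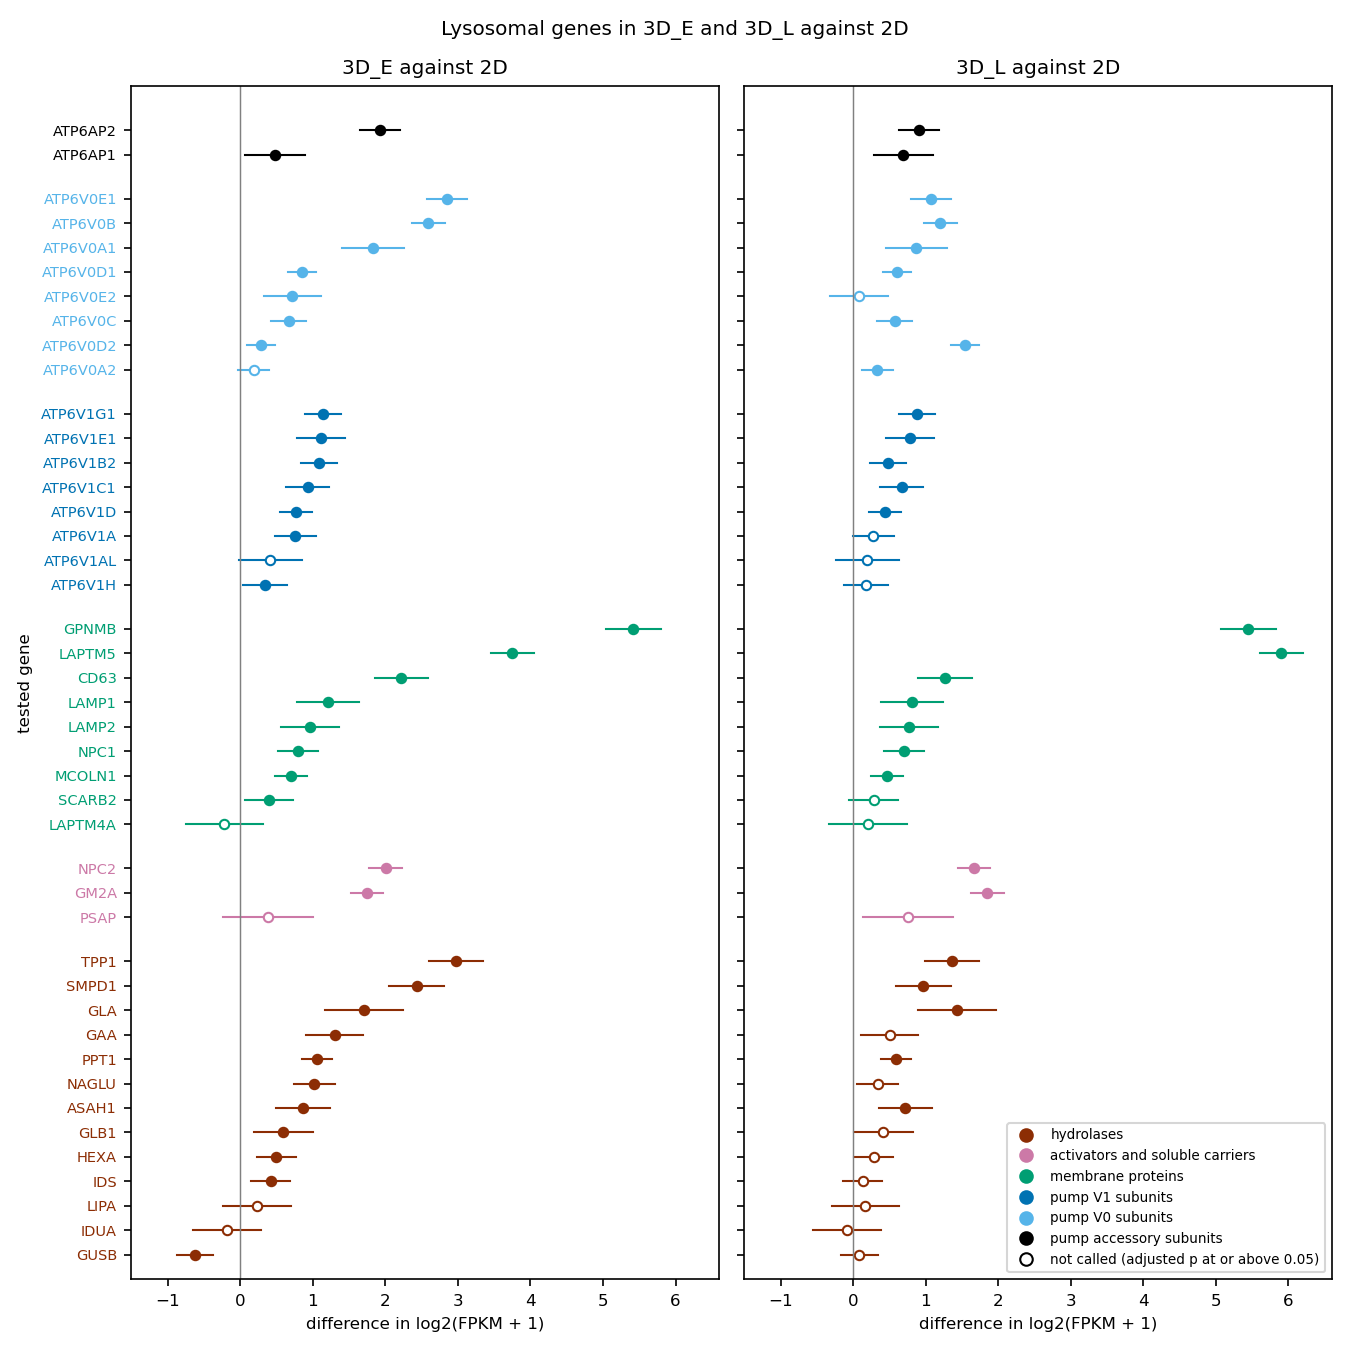
Difference in log2(FPKM + 1) against 2D for the 43 tested lysosomal genes (rows, coloured by role), in 3D_E (left) and 3D_L (right). Points are limma estimates from 3 libraries a group, bars are unadjusted 95% confidence intervals and open points are genes not called. GPNMB and LAPTM5 lie furthest to the right in both panels, and GUSB is the 1 filled point left of 0, in 3D_E.

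Soluble hydrolases come first. Of 13 found and tested, 10 rose and 1 fell in 3D_E (36.1% and 32.1% of all tested genes). In 3D_L 5 rose and 0 fell (20.3% and 16.2%), and the medians were 0.86 and 0.41. TPP1, a peptidase that trims tripeptides from protein ends, measured 32.8, 26.1 and 29.1 FPKM in the 2D libraries, 183, 245 and 297 in 3D_E and 75.5, 71.3 and 83.9 in 3D_L. All 3 groups were apart, with 3D_E highest and 2D lowest. The change was 2.98 (SE 0.17, limma, adjusted p = 2.67e-07) in 3D_E and 1.36 (SE 0.17, limma, adjusted p = 1.93e-04) in 3D_L. SMPD1, the acid sphingomyelinase that makes ceramide, measured 24.4, 18.0 and 21.2 FPKM in the 2D libraries, 92.0, 119.7 and 149 in 3D_E and 41.6, 39.1 and 45.8 in 3D_L. It followed the same order with no overlap, rising by 2.43 (SE 0.17, limma, adjusted p = 1.26e-06) in 3D_E and by 0.97 (SE 0.17, limma, adjusted p = 0.00183) in 3D_L.

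GLA, alpha-galactosidase A, which removes galactose from glycolipids, measured 11.2, 10.5 and 11.1 FPKM in the 2D libraries, 52.6, 44.0 and 23.2 in 3D_E and 33.5, 31.8 and 27.9 in 3D_L. Both suspension groups lay above 2D but overlapped each other, since replicate 3 of 3D_E was lower than every 3D_L library. The rise was 1.70 (SE 0.24, limma, adjusted p = 1.51e-04) in 3D_E and 1.43 (SE 0.24, limma, adjusted p = 0.00138) in 3D_L. GAA, which digests glycogen, measured 2.01, 1.23 and 1.71 FPKM in the 2D libraries, 4.09, 5.36 and 7.39 in 3D_E and 2.76, 2.53 and 2.88 in 3D_L. It rose in 3D_E by 1.30 (SE 0.18, limma, adjusted p = 1.20e-04), and in 3D_L its change was 0.50 (SE 0.18, limma, adjusted p = 0.0501), just short of the threshold, although the groups did not overlap. GAA was called in 3D_L without 3D_E replicate 1 or 3 (limma, adjusted p from 0.00955 to 0.0105).

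ASAH1, the acid ceramidase, measured 80.5, 80.9 and 78.8 FPKM in the 2D libraries, 182, 160.0 and 108 in 3D_E and 125, 134 and 139 in 3D_L. It rose in both groups, by 0.86 (SE 0.16, limma, adjusted p = 0.00104) and by 0.72 (SE 0.16, limma, adjusted p = 0.00735). PPT1, which takes palmitate off proteins, rose by 1.06 (SE 0.09, limma, adjusted p = 5.83e-06) in 3D_E and by 0.59 (SE 0.09, limma, adjusted p = 9.30e-04) in 3D_L. NAGLU, an enzyme of heparan sulfate breakdown, rose by 1.02 (SE 0.13, limma, adjusted p = 6.65e-05) in 3D_E, and in 3D_L its change was 0.34 (SE 0.13, limma, adjusted p = 0.0626). GLB1 (beta-galactosidase), HEXA (a subunit of beta-hexosaminidase) and IDS (an enzyme of heparan and dermatan sulfate breakdown) rose in 3D_E by 0.59, 0.50 and 0.42, and were not called in 3D_L. GLB1 was called in 3D_L without 3D_E replicate 1 or 3 (limma, adjusted p from 0.00331 to 0.0191). HEXA was called in 3D_L without 3D_E replicate 1 or 3 (limma, adjusted p from 0.0239 to 0.029). NAGLU was called in 3D_L without 3D_E replicate 1 or 3 (limma, adjusted p from 0.0115 to 0.0272). The GLB1 call in 3D_E ended without replicate 2 of 3D_E (limma, adjusted p = 0.0546).

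GUSB, beta-glucuronidase, went the other way. It measured 40.5, 36.2 and 42.2 FPKM in the 2D libraries, 29.6, 25.0 and 22.0 in 3D_E and 42.7, 41.4 and 42.0 in 3D_L, and all 3D_E libraries were the lowest. The fall in 3D_E was -0.62 (SE 0.11, limma, adjusted p = 7.79e-04), while the difference in 3D_L was 0.08 (SE 0.11, limma, adjusted p = 0.596). IDUA, which acts with IDS on the same glycosaminoglycans, measured 7.50 ± 0.64 in 2D, 6.75 ± 2.46 in 3D_E and 7.03 ± 0.85 in 3D_L and was called in neither comparison. LIPA, the acid lipase that frees cholesterol from its esters, was also called in neither, at 61.3, 63.8 and 65.1 FPKM in the 2D libraries, 103, 80.5 and 49.8 in 3D_E and 72.3, 72.7 and 69.2 in 3D_L. Replicate 3 of 3D_E lay below all 2D libraries and replicate 1 above all others, and without replicate 3 it was called in 3D_E (log2 change 0.52, limma, adjusted p = 0.0014).

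Helpers without catalytic activity were split. NPC2, which carries cholesterol out of the lysosomal lumen and hands it to NPC1, measured 63.5, 56.2 and 62.0 FPKM in the 2D libraries, 258, 263 and 219 in 3D_E and 193, 184 and 206 in 3D_L. No groups overlapped, and the rise was 2.00 (SE 0.10, limma, adjusted p = 1.34e-07) in 3D_E and 1.67 (SE 0.10, limma, adjusted p = 1.93e-06) in 3D_L. GM2A, the activator that presents gangliosides to beta-hexosaminidase, measured 9.53, 7.71 and 8.40 FPKM in the 2D libraries, 33.9, 30.1 and 29.1 in 3D_E and 34.2, 31.6 and 34.1 in 3D_L. Here 3D_E and 3D_L overlapped, both well above 2D, with rises of 1.75 (SE 0.10, limma, adjusted p = 3.21e-07) and 1.85 (SE 0.10, limma, adjusted p = 9.34e-07). HEXA, whose enzyme GM2A serves, stood at 35.0 ± 3.11, 50.1 ± 7.86 and 42.6 ± 0.564.

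PSAP, the precursor of the saposins that help digest sphingolipids, had the largest difference between replicates 1 and 3 of 3D_E among the 43 tested genes. It measured 239, 251 and 254 FPKM in the 2D libraries, 515, 339.9 and 192 in 3D_E and 438, 435 and 388 in 3D_L. The 3D_E libraries reached from below 2D to above 3D_L, and neither difference from 2D was called, at 0.38 (SE 0.28, limma, adjusted p = 0.248) for 3D_E and 0.75 (SE 0.28, limma, adjusted p = 0.0581) for 3D_L. Leaving out replicate 3 of 3D_E gave a called rise there (log2 change 0.75, limma, adjusted p = 0.00127). PSAP was called in 3D_L without 3D_E replicate 1 or 3 (limma, adjusted p from 0.00121 to 0.00363).

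The largest rises of the 43 tested genes were those of 2 membrane proteins. LAPTM5, a lysosomal membrane protein known in mammals mainly from blood cells, measured 0.81, 0.79 and 0.47 FPKM in the 2D libraries, 25.0, 22.9 and 17.7 in 3D_E and 98.6, 96.9 and 103 in 3D_L. No groups overlapped, and 3D_L stood highest. It rose by 3.75 (SE 0.13, limma, adjusted p = 1.92e-08) in 3D_E and by 5.90 (SE 0.13, limma, adjusted p = 4.31e-09) in 3D_L. GPNMB, a glycoprotein known in mammals from macrophages, osteoclasts and pigment cells, measured 0.04, 0.09 and 0.07 FPKM in the 2D libraries, 51.3, 53.0 and 32.5 in 3D_E and 50.5, 45.1 and 41.2 in 3D_L. It was close to 0 in 2D, and the suspension groups overlapped each other, with changes of 5.42 (SE 0.17, limma, adjusted p = 1.04e-08) and 5.45 (SE 0.17, limma, adjusted p = 2.05e-08). Both genes passed the filter on low values only through the suspension libraries.

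Because these genes are known from other cell types, markers of those types were read beside them. Of the 11 other macrophage and blood cell markers found, 8 were below 1 FPKM in every library, among them PTPRC, SPI1, C1QC and MPEG1, and the 11 summed to 5.01 to 5.47 in 2D, 4.86 to 6.68 in 3D_E and 3.48 to 3.90 in 3D_L. The 3 that reached 1 went different ways. CSF1R, the receptor of the macrophage growth factor, measured 0.26 ± 0.0721 in 2D, 1.93 ± 0.81 in 3D_E and 0.697 ± 0.0924 in 3D_L, CD74, a chaperone of antigen presentation, 2.93 ± 0.129, 1.63 ± 0.21 and 1.37 ± 0.363, and MARCO, a scavenger receptor, 1.78 ± 0.0929, 1.57 ± 0.298 and 1.16 ± 0.258. The part of these markers in the LAPTM5 and GPNMB results was not tested. The 10 other pigment cell markers found summed to 8.46 to 9.32 in 2D, 76.8 to 85.2 in 3D_E and 39.3 to 43.3 in 3D_L. Most of that came from MITF and EDNRB2. Without these 2 genes the sums were 1.13 to 2.04 in 2D, 2.13 to 3.72 in 3D_E and 1.93 to 2.36 in 3D_L. MITF measured 7.17 ± 0.142 in 2D, 34.5 ± 2.31 in 3D_E and 15.7 ± 0.964 in 3D_L. EDNRB2 made up most of the rest in both suspension groups and little of the sum in 2D. PMEL, MLANA, OCA2 and SOX10 stayed below 1 in every library. The 7 other osteoclast markers found summed to 130.3 to 168 in 2D, 1363 to 2424 in 3D_E and 505 to 582 in 3D_L, nearly all of it CTSK, a collagenase that fibroblasts also make. Without CTSK the sums were 4.75 to 5.02 in 2D, 8.03 to 9.33 in 3D_E and 7.56 to 9.17 in 3D_L. With ATP6V0D2 counted, 4 of 4 tested osteoclast markers, out of 8 found, rose in both groups. With GPNMB counted, 3 of 4 tested pigment cell markers, out of 11 found, rose and 0 fell in both. ATP6V0D2 passed the filter on low values only through 3D_L, and GPNMB and EDNRB2 only through the suspension libraries. The filter thus favoured rises in these genes. Of 4 tested macrophage and blood cell markers, with LAPTM5 and out of 12 found, 2 rose and 1 fell in 3D_E. In 3D_L 1 rose and 2 fell. CSF1R reached 1 FPKM only in 3D_E and LAPTM5 only in the suspension groups, so the filter favoured their rises as well. Of all tested genes 36.1% rose and 32.1% fell in 3D_E, and 20.3% and 16.2% in 3D_L. The part of these cell types was not tested.

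**Figure D2:**
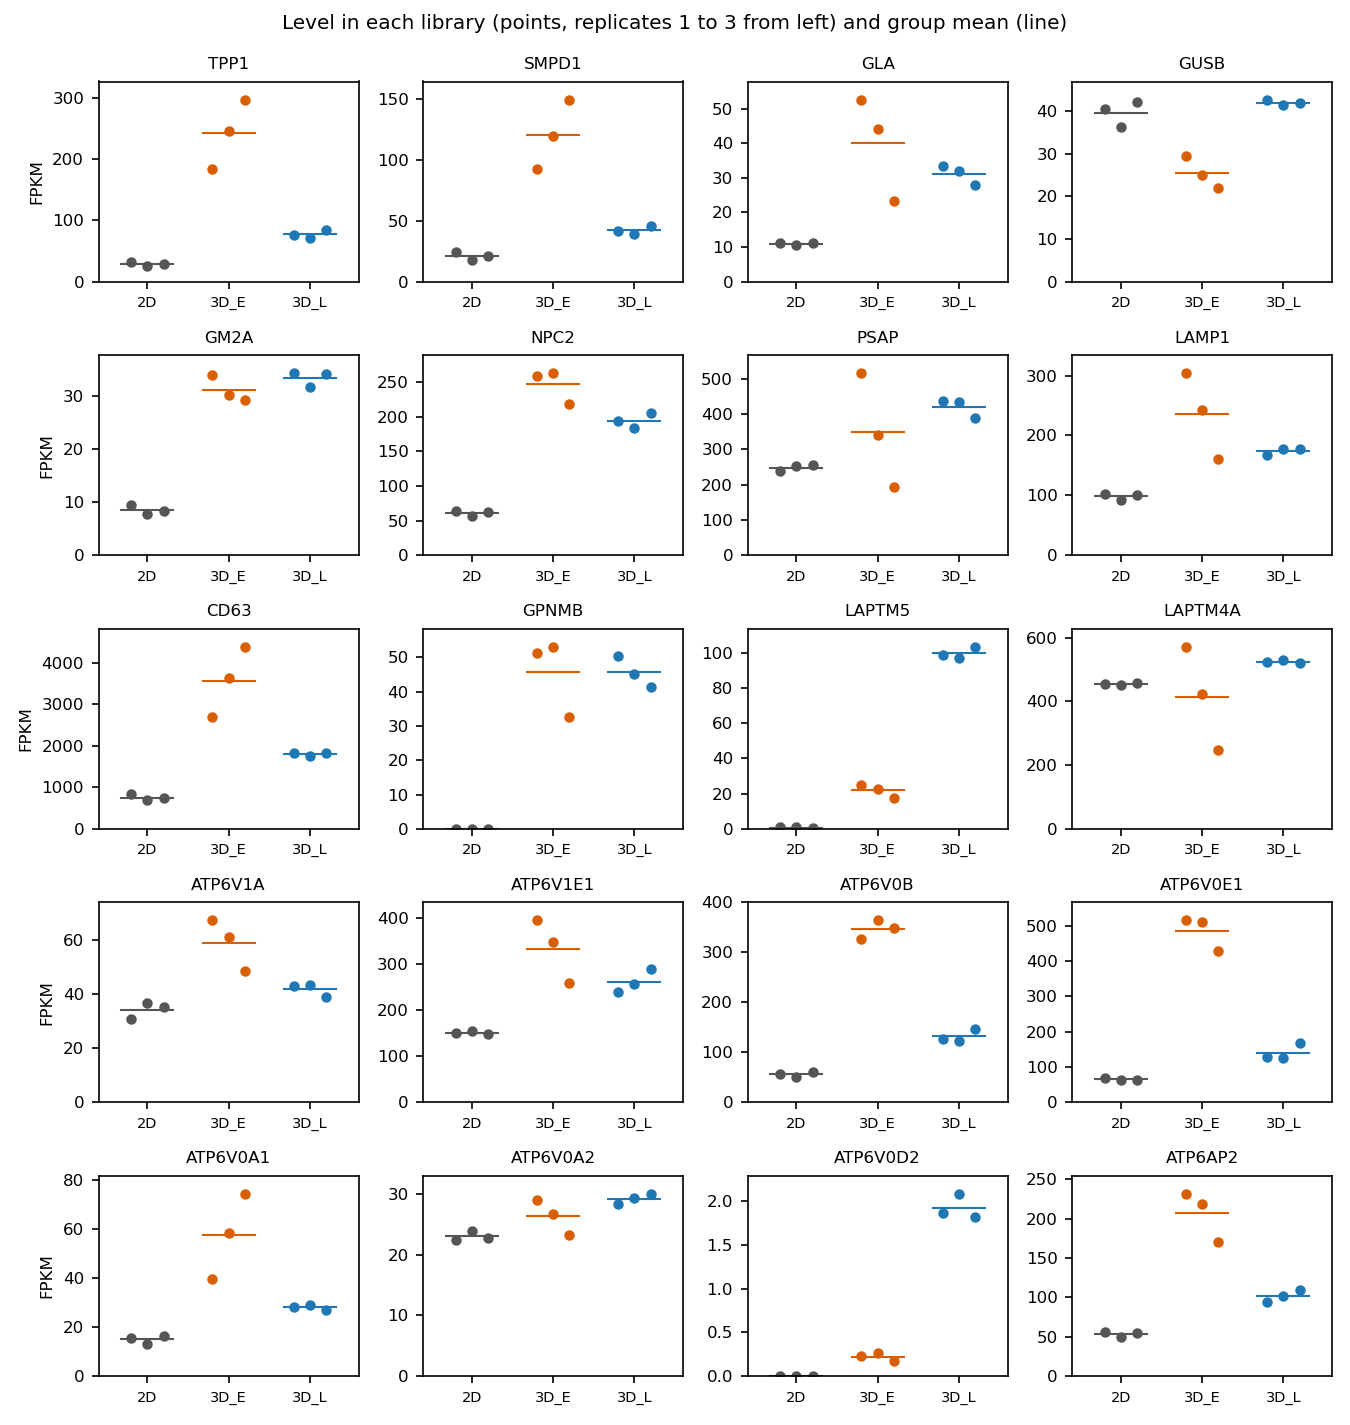
FPKM of 20 lysosomal genes in each library of 2D, 3D_E and 3D_L (points, 3 a group) with the group mean (line), on linear axes from 0 that differ between panels. TPP1, SMPD1, CD63 and the pump subunits ATP6V0B and ATP6V0E1 stand highest in 3D_E, LAPTM5 and ATP6V0D2 in 3D_L, and GUSB is lowest in 3D_E.

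CD63, a tetraspanin of late endosomes, lysosomes and exosomes, had the highest FPKM of the 47 genes in all 3 groups. It measured 831, 687 and 734 FPKM in the 2D libraries, 2682, 3632 and 4379.8 in 3D_E and 1819.7, 1750.4 and 1835 in 3D_L. All groups were apart, with rises of 2.22 (SE 0.17, limma, adjusted p = 1.94e-06) and 1.27 (SE 0.17, limma, adjusted p = 3.09e-04). Without CD63 the share of the summed FPKM held by the other lysosomal genes was 0.361% ± 0.0057 in 2D, 0.773% ± 0.166 in 3D_E and 0.621% ± 0.014 in 3D_L. The abundant structural proteins LAMP1 and LAMP2, which line the lysosomal membrane, rose as well. LAMP1 measured 102, 91.8 and 101 FPKM in the 2D libraries, 304, 243 and 161 in 3D_E and 168, 177 and 177 in 3D_L, a rise of 1.20 (SE 0.19, limma, adjusted p = 3.19e-04) in 3D_E and of 0.81 (SE 0.19, limma, adjusted p = 0.00828) in 3D_L. LAMP2, also needed for fusion with autophagosomes, measured 76.1, 69.9 and 74.4 FPKM in the 2D libraries, 191, 150.3 and 105 in 3D_E and 119, 128 and 130.3 in 3D_L, a rise of 0.97 (SE 0.18, limma, adjusted p = 8.91e-04) and of 0.77 (SE 0.18, limma, adjusted p = 0.00821). For both, every suspension library lay above 2D, and the suspension groups overlapped each other.

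Cholesterol export, calcium release and enzyme transport each had a member here. NPC1, the membrane partner of NPC2, rose by 0.80 (SE 0.12, limma, adjusted p = 2.70e-04) in 3D_E and by 0.70 (SE 0.12, limma, adjusted p = 0.00177) in 3D_L. MCOLN1, a calcium channel of the lysosomal membrane, rose by 0.70 (SE 0.10, limma, adjusted p = 1.66e-04) and by 0.47 (SE 0.10, limma, adjusted p = 0.00532). SCARB2, which carries glucocerebrosidase to lysosomes, stood at 51.1 ± 0.746, 69.0 ± 16.0 and 62.3 ± 2.75. Its call in 3D_E (limma, adjusted p = 0.0347) held under 10 of 20 alternative settings, and it was not called in 3D_L. SCARB2 lost this call without 2D replicate 1, 2 or 3 or 3D_E replicate 1 or 2 or 3D_L replicate 2 (limma, adjusted p from 0.0511 to 0.105). SCARB2 was called in 3D_L without 3D_E replicate 3 (limma, adjusted p = 0.016).

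LAPTM4A, which is related to LAPTM5, did not share its pattern. It measured 453, 450.2 and 459 FPKM in the 2D libraries, 571, 422 and 247 in 3D_E and 522, 529 and 520.3 in 3D_L. The 3D_E libraries enclosed those of 2D and neither difference was called, with 95% confidence intervals of -0.75 to 0.32 in 3D_E and -0.33 to 0.74 in 3D_L. Without replicate 1 of 3D_E it was called lower there (log2 change -0.49, limma, adjusted p = 0.0238). LAPTM4B, of the same family, was at or below 0.1 in every library.

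Genes of the proton pump rose in both suspension groups too. Of its 21 genes 18 were tested. In 3D_E 16 rose and 0 fell (36.1% and 32.1% of all tested genes). In 3D_L 14 rose and 0 fell (20.3% and 16.2%), and the median changes were 0.81 and 0.64. The 26 other genes had medians of 0.97 and 0.70 over the 25 tested. At an unadjusted p under 0.05, 0 pump genes fell in either group. The counts of pump genes that rose include ATP6V0D2, which passed the filter on low values only through 3D_L. As a share of all FPKM, pump genes made up 0.161% ± 0.00146 in 2D, 0.411% ± 0.0669 in 3D_E and 0.28% ± 0.00981 in 3D_L.

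In the V1 part, 7 of 8 tested subunits rose in 3D_E (36.1% of all tested genes), and 5 of them in 3D_L (20.3%). The subunits A and B form the ring that splits ATP. ATP6V1A measured 30.8, 36.6 and 35.3 FPKM in the 2D libraries, 67.1, 61.1 and 48.4 in 3D_E and 43.0, 43.4 and 38.8 in 3D_L, a rise of 0.76 (SE 0.13, limma, adjusted p = 4.76e-04) in 3D_E and a change of 0.28 (SE 0.13, limma, adjusted p = 0.113) in 3D_L. ATP6V1A was called in 3D_L without 3D_E replicate 1 or 3 (limma, adjusted p from 0.0267 to 0.0474). ATP6V1B2 measured 51.4, 54.8 and 51.9 FPKM in the 2D libraries, 129, 116 and 95.3 in 3D_E and 71.8, 74.9 and 74.8 in 3D_L. It rose by 1.08 (SE 0.11, limma, adjusted p = 1.65e-05) and by 0.48 (SE 0.11, limma, adjusted p = 0.0077), and no groups overlapped. D is part of the central rotor. ATP6V1D measured 84.4, 87.2 and 77.1 FPKM in the 2D libraries, 154, 146 and 127 in 3D_E and 105, 117 and 116 in 3D_L, with rises of 0.77 (SE 0.10, limma, adjusted p = 8.28e-05) and 0.44 (SE 0.10, limma, adjusted p = 0.00701).

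E and G form the outer stalks that hold the ring in place. ATP6V1E1 measured 151, 155 and 148 FPKM in the 2D libraries, 394, 348 and 258 in 3D_E and 238, 256 and 288 in 3D_L, and ATP6V1G1 measured 163, 179 and 164 FPKM in the 2D libraries, 392, 395 and 333 in 3D_E and 290.4, 294 and 353 in 3D_L. Both had every suspension library above 2D and overlap between the suspension groups. ATP6V1E1 rose by 1.11 (SE 0.15, limma, adjusted p = 9.95e-05) and 0.78 (SE 0.15, limma, adjusted p = 0.00272), and ATP6V1G1 by 1.14 (SE 0.11, limma, adjusted p = 1.23e-05) and 0.88 (SE 0.11, limma, adjusted p = 2.43e-04). C links the stalks to V0 and is lost when the pump comes apart. ATP6V1C1 measured 48.6, 55.2 and 47.1 FPKM in the 2D libraries, 114, 101 and 78.9 in 3D_E and 75.7, 81.2 and 84.2 in 3D_L, rising by 0.93 (SE 0.13, limma, adjusted p = 1.59e-04) and 0.67 (SE 0.13, limma, adjusted p = 0.00354). H is known from yeast as a brake on free V1. ATP6V1H measured 20.5 ± 2.19, 26.3 ± 4.80 and 23.2 ± 1.34, and its call in 3D_E (limma, adjusted p = 0.0496) held under 4 of 20 alternatives. ATP6V1H lost this call without 2D replicate 1 or 3 or 3D_E replicate 1 or 2 or 3D_L replicate 1, 2 or 3 (limma, adjusted p from 0.0632 to 0.15). The gene listed as ATP6V1AL, at 1.93 ± 0.13, 3.03 ± 1.22 and 2.36 ± 0.283, was not called in either group. Without replicate 1 of 3D_E, ATP6V1AL rose there (log2 change 0.66, limma, adjusted p = 6.22e-04). How reads were divided between it and ATP6V1A is not given in the sources used here.

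In the V0 part, 7 of 8 tested subunits rose in each suspension group, beside 36.1% (3D_E) and 20.3% (3D_L) of all tested genes. Both counts include ATP6V0D2, which passed the filter on low values only through 3D_L, so the filter favoured its rise. The changes in this part ran from 0.18 to 2.85 in 3D_E. Its proteolipid ring turns as protons pass and is built of the c subunit (ATP6V0C) with 1 related subunit from ATP6V0B. ATP6V0B measured 57.9, 51.8 and 60.6 FPKM in the 2D libraries, 327, 364 and 348 in 3D_E and 127, 123 and 146 in 3D_L. No groups overlapped, and 3D_E was highest, with rises of 2.59 (SE 0.10, limma, adjusted p = 3.22e-08) and 1.20 (SE 0.10, limma, adjusted p = 1.64e-05). ATP6V0C measured 206, 192 and 188 FPKM in the 2D libraries, 320.0, 322 and 288 in 3D_E and 264, 277 and 336 in 3D_L, with smaller rises of 0.66 (SE 0.11, limma, adjusted p = 4.11e-04) and 0.57 (SE 0.11, limma, adjusted p = 0.00278). It had the highest FPKM of the 21 pump genes in 2D, above ATP6V1G1 in each 2D library. ATP6V0E1 was highest of the 21 in each 3D_E library and ATP6V1G1 in each 3D_L library. RNASEK, a V0 protein on a further list, stood higher, at 390 ± 16.3 in 2D, 692 ± 92.4 in 3D_E and 570 ± 55.8 in 3D_L.

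ATP6V0E1 and ATP6V0E2 encode 2 forms of the small membrane subunit e. ATP6V0E1 measured 69.8, 64.2 and 64.0 FPKM in the 2D libraries, 514, 509 and 428 in 3D_E and 129.7, 127 and 167 in 3D_L, the largest rise of the pump in 3D_E, 2.85 (SE 0.12, limma, adjusted p = 5.91e-08), with 1.07 (SE 0.12, limma, adjusted p = 1.44e-04) in 3D_L. ATP6V0E2 measured 17.8, 15.8 and 13.9 FPKM in the 2D libraries, 20.3, 30.1 and 30.6 in 3D_E and 16.6, 14.1 and 20.1 in 3D_L, rising by 0.72 (SE 0.18, limma, adjusted p = 0.00491) in 3D_E, and was not called in 3D_L. The ratio of the first to the second was 3.93 to 4.59 in 2D, 14.0 to 25.4 in 3D_E and 7.83 to 9.01 in 3D_L, with no overlap.

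Subunit a carries the path for protons and its forms are known to send the pump to different membranes. ATP6V0A1 measured 15.4, 13.3 and 16.1 FPKM in the 2D libraries, 39.6, 58.3 and 74.2 in 3D_E and 28.3, 29.1 and 26.9 in 3D_L, rising by 1.83 (SE 0.19, limma, adjusted p = 1.81e-05) and 0.87 (SE 0.19, limma, adjusted p = 0.00572). ATP6V0A2, known in mammals from the Golgi apparatus and early endosomes, measured 22.4, 23.9 and 22.8 FPKM in the 2D libraries, 29.0, 26.8 and 23.3 in 3D_E and 28.4, 29.5 and 30.0 in 3D_L. ATP6V0A2 was called in 3D_E without 3D_E replicate 3 (limma, adjusted p = 0.0153). With all libraries its difference in 3D_E was 0.18 (SE 0.09, limma, adjusted p = 0.111), and its rise in 3D_L, 0.33 (SE 0.09, limma, adjusted p = 0.0204), held under 14 of 20 alternatives. ATP6V0A2 lost this call without 2D replicate 1 or 3 or 3D_L replicate 1, 2 or 3 (limma, adjusted p from 0.0503 to 0.073). The ratio of ATP6V0A1 to ATP6V0A2 was 0.554 to 0.708 in 2D, 1.36 to 3.19 in 3D_E and 0.896 to 0.997 in 3D_L. ATP6V0A2 was thus the higher of the pair in every 2D and 3D_L library, and ATP6V0A1 in every 3D_E library.

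Subunit d joins the ring to the rotor. ATP6V0D1, the form found in most tissues, measured 49.2, 47.9 and 51.3 FPKM in the 2D libraries, 97.3, 88.2 and 83.8 in 3D_E and 79.2, 74.2 and 74.0 in 3D_L, rising by 0.84 (SE 0.09, limma, adjusted p = 1.63e-05) and 0.61 (SE 0.09, limma, adjusted p = 4.90e-04). ATP6V0D2, known in mice from osteoclasts and kidney, was listed at 0 in every 2D library, at 0.23, 0.26 and 0.17 in 3D_E and at 1.86, 2.08 and 1.82 in 3D_L. It reached 1 FPKM only in 3D_L, through which it passed the filter, and its call in 3D_E (limma, adjusted p = 0.0142) held under 11 of 16 alternatives, ending for example with a pseudocount of 5 (limma, adjusted p = 0.0959). ATP6V0D2 lost this call without 3D_E replicate 2 (limma, adjusted p = 0.0571). Of the other forms known in mammals from specialised cells such as those of the kidney, ATP6V0A4, ATP6V1C2 and ATP6V1G3 stayed at or below 0.26 in every library. ATP6V1G3 was at 0.17 in every 2D library and listed at 0 in all others.

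The accessory subunits help assemble the pump and tie it to other proteins. ATP6AP2, also called the prorenin receptor, measured 56.5, 49.7 and 54.4 FPKM in the 2D libraries, 231, 219 and 171 in 3D_E and 93.7, 102 and 109 in 3D_L, rising by 1.92 (SE 0.12, limma, adjusted p = 6.86e-07) and 0.91 (SE 0.12, limma, adjusted p = 3.74e-04) with no overlap. ATP6AP1 measured 89.1, 91.9 and 91.5 FPKM in the 2D libraries, 161, 143 and 89.0 in 3D_E and 140.2, 147 and 155 in 3D_L. It rose in 3D_L by 0.69 (SE 0.18, limma, adjusted p = 0.0153), without overlap, but that call ended without replicate 3 of 3D_L (limma, adjusted p = 0.0509). Replicate 3 of 3D_E was at the level of 2D, and the call in 3D_E, 0.48 (SE 0.18, limma, adjusted p = 0.0396), held under 8 of 20 alternatives. ATP6AP1 lost this call without 2D replicate 1, 2 or 3 or 3D_E replicate 1 or 2 or 3D_L replicate 1, 2 or 3 (limma, adjusted p from 0.0549 to 0.133).

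**Figure D3:**
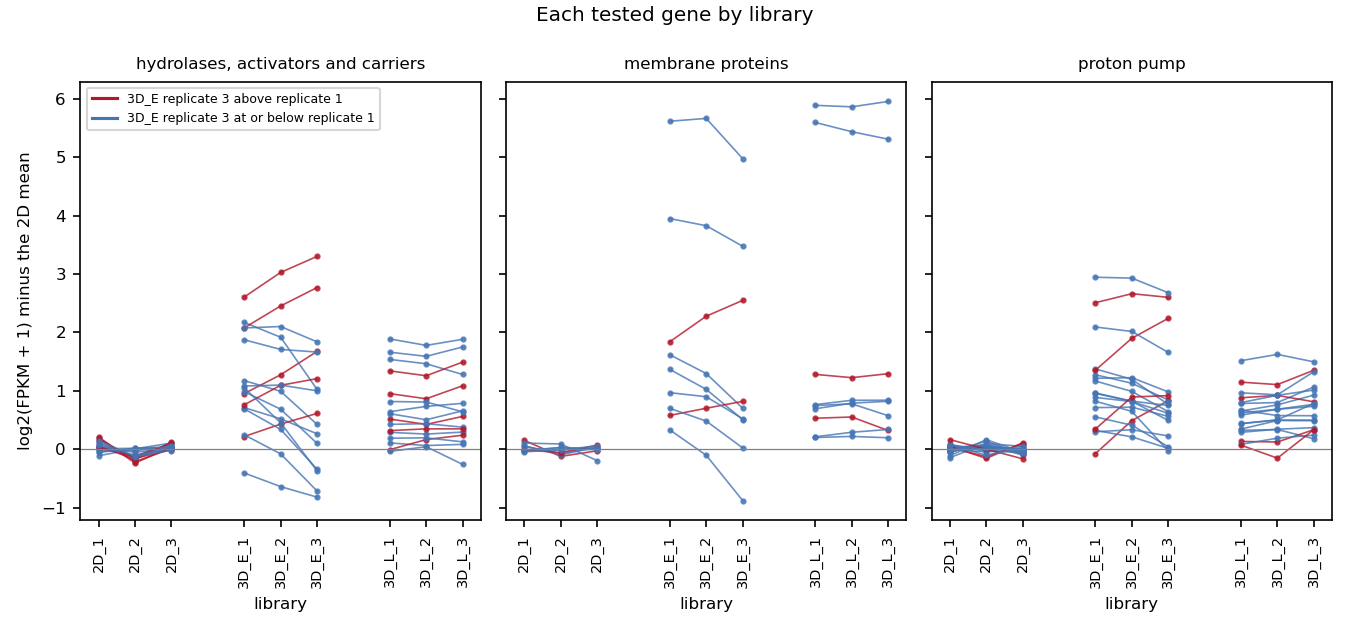
Each tested lysosomal gene (lines) in each library (x axis), as log2(FPKM + 1) minus the gene's mean in 2D, in 3 panels by role. Lines join libraries of a group only to show which points are 1 gene, and red marks the 11 genes with replicate 3 of 3D_E above replicate 1. The 2D and 3D_L lines are nearly flat, and the 3D_E lines cross.

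The 3D_E libraries differed from each other in which lysosomal genes were high. Replicate 3 was below replicate 1 for 32 of the 43 tested genes and above it for 11, with a median difference of -0.41, against 0.05 over all 10436 tested genes, of which 46.1% were lower. Replicate 2 lay between the other two for 36 of the 43, as for 78.9% of all tested genes. The genes above were TPP1, SMPD1, GAA, NAGLU, IDS, CD63, MCOLN1, ATP6V0A1, ATP6V0B, ATP6V0E2 and ATP6V1AL, by between 0.09 (ATP6V0B) and 0.91 (ATP6V1AL) on the log2 scale. The largest deficits in replicate 3 were those of PSAP (-1.42), LAPTM4A (-1.21), GLA (-1.14) and LIPA (-1.03). For GUSB, IDUA, LIPA, PSAP, LAPTM4A and ATP6AP1, replicate 3 lay below all 3 libraries of 2D, which held for 43.4% of all tested genes. The part of this library difference in the group comparisons was not tested beyond leaving each library out. Without replicate 3, 39 lysosomal genes rose and 1 fell in 3D_E against 2D, and without replicate 1, 34 rose and 2 fell.

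A direct comparison of the suspension groups asks which lysosomal genes differed between 3D_L and 3D_E. Of the 47, 16 were lower in 3D_L and 3 were higher, where 26.4% of all tested genes fell, 27.2% rose and 53.6% did either, and the median change was -0.24 against -0.0047 for all tested genes. The counts changed with single libraries of 3D_E. Without replicate 3 of 3D_E, 28 fell and 3 rose, and without replicate 1, 18 fell and 6 rose. Every 3D_L library lay below every 3D_E library for 17 of the 43 tested genes and above for 3, against 27.0% and 29.4% of all tested genes.

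The largest falls were those of ATP6V0E1, -1.78 (SE 0.12, limma, adjusted p = 3.39e-06), TPP1, -1.61 (SE 0.17, limma, adjusted p = 4.17e-05), SMPD1, -1.47 (SE 0.17, limma, adjusted p = 9.81e-05), and ATP6V0B, -1.39 (SE 0.10, limma, adjusted p = 4.30e-06). The changes of ATP6AP2, ATP6V0A1 and CD63, also called, were -1.01, -0.96 and -0.96. Further falls among the hydrolases were those of GAA, -0.80 (SE 0.18, limma, adjusted p = 0.00427), NAGLU and PPT1. In the pump ring, ATP6V1B2 fell with -0.60 (SE 0.11, limma, adjusted p = 0.00151), and ATP6V1A with -0.48 (SE 0.13, limma, adjusted p = 0.0108). NPC2 (-0.34) and ATP6V1D (-0.33) were called as well, under 14 of 20 and 15 of 20 alternatives, and ATP6V0D1 (-0.24) under 7 of 20. NPC2 lost this call without 3D_E replicate 2 or 3D_L replicate 1 or 2 (limma, adjusted p from 0.0538 to 0.0793). ATP6V1D lost this call without 3D_E replicate 2 or 3D_L replicate 1 (limma, adjusted p from 0.0705 to 0.0766). ATP6V0D1 lost this call without 2D replicate 1, 2 or 3 or 3D_E replicate 1 or 2 or 3D_L replicate 1, 2 or 3 (limma, adjusted p from 0.0575 to 0.116). The call of ATP6V0E2, -0.64 (SE 0.18, limma, adjusted p = 0.0135), ended without replicate 2 of 3D_E (limma, adjusted p = 0.0572) or without replicate 2 of 3D_L (limma, adjusted p = 0.0576).

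The genes higher in 3D_L than in 3D_E were 3. LAPTM5 rose by 2.15 (SE 0.13, limma, adjusted p = 1.57e-06), ATP6V0D2 by 1.26 (SE 0.09, limma, adjusted p = 3.03e-06) and GUSB by 0.71 (SE 0.11, limma, adjusted p = 7.12e-04), and in each the groups did not overlap. The filter on low values favoured the rise of ATP6V0D2, which passed it only through 3D_L. LAMP1, LAMP2, GPNMB and GM2A were not called, with 95% confidence intervals of -0.82 to 0.03, -0.60 to 0.20, -0.35 to 0.41 and -0.12 to 0.32. Without replicate 3 of 3D_E, LAMP1 was called lower in 3D_L (log2 change -0.64, limma, adjusted p = 7.15e-04) and so was LAMP2 (log2 change -0.43, limma, adjusted p = 0.00795). ASAH1, GLA, GLB1, HEXA, LIPA, SCARB2, ATP6V1C1, ATP6V1E1, ATP6V1G1 and ATP6V1H were called lower in 3D_L when 3D_E replicate 3 was left out (log2 changes from -0.62 to -0.31, limma, adjusted p from 9.79e-04 to 0.0315). IDS, MCOLN1 and ATP6V1AL were called lower in 3D_L when 3D_E replicate 1 was left out (log2 changes from -0.46 to -0.29, limma, adjusted p from 0.0072 to 0.023). PSAP, LAPTM4A and ATP6V0A2 were called higher in 3D_L when 3D_E replicate 1 was left out (log2 changes from 0.22 to 0.71, limma, adjusted p from 0.0046 to 0.0484). ATP6V1G1 was called lower in 3D_L when 3D_L replicate 3 was left out (log2 change -0.35, limma, adjusted p = 0.0263).

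**Figure D4:**
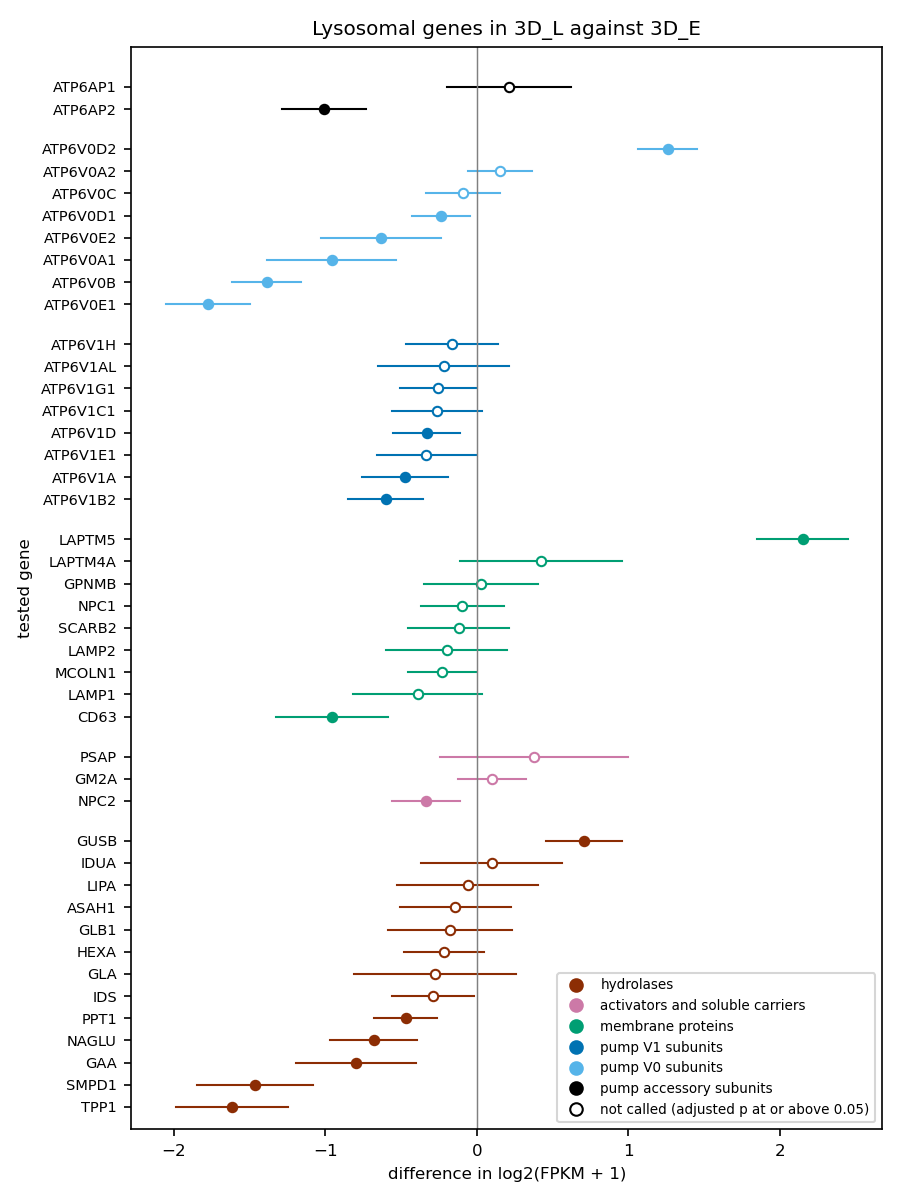
Difference in log2(FPKM + 1) of 3D_L against 3D_E for the 43 tested lysosomal genes (rows, coloured by role). Points are limma estimates from 3 libraries a group, bars are unadjusted 95% confidence intervals, and open points are genes not called. Most points lie left of 0, with ATP6V0E1, TPP1, SMPD1 and ATP6V0B furthest, and LAPTM5 and ATP6V0D2 furthest to the right.

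The regulators and partners of these genes were read from 6 further lists. In the list of MITF-family factors and the nutrient switch at the lysosome, 13 of 17 tested genes rose and 1 fell in 3D_E (36.1% and 32.1% of all tested genes), and 7 rose and 0 fell in 3D_L (20.3% and 16.2%). The medians were 0.67 and 0.34, beside 0.05 and 0.03 for all tested genes. FNIP1, a partner of folliculin, which controls the family's entry into the nucleus, measured 5.61, 6.57 and 7.11 FPKM in the 2D libraries, 39.9, 43.7 and 42.7 in 3D_E and 18.1, 15.9 and 10.5 in 3D_L, rising by 2.54 (SE 0.17, limma, adjusted p = 9.69e-07) and 1.06 (SE 0.17, limma, adjusted p = 0.00108). MITF measured 7.10, 7.07 and 7.33 FPKM in the 2D libraries, 36.4, 35.1 and 31.9 in 3D_E and 15.8, 16.6 and 14.6 in 3D_L, rising by 2.12 (SE 0.09, limma, adjusted p = 4.21e-08) and 1.03 (SE 0.09, limma, adjusted p = 1.70e-05) with no overlap between groups. LAMTOR2, a subunit of the Ragulator anchor of mTOR, stood at 160.3, 373 and 478 in the 3D_E libraries against 75.1 ± 4.62 in 2D. RRAGA, a GTPase that Ragulator holds, rose by 0.90 (SE 0.09, limma, adjusted p = 1.80e-05) in 3D_E and by 0.59 (SE 0.09, limma, adjusted p = 9.60e-04) in 3D_L. TFE3 measured 12.3 ± 1.07, 29.7 ± 11.2 and 15.4 ± 1.37, TFEB 7.43 ± 0.802, 10.2 ± 2.24 and 7.35 ± 0.568, and TFEC stayed below 1 in every library. MTOR, the gene of mTOR itself, measured 9.60 ± 1.02, 26.5 ± 6.62 and 12.4 ± 1.60. It rose in 3D_E by 1.35 (SE 0.18, limma, adjusted p = 8.99e-05) and was not called in 3D_L. The activity of mTOR was not tested. TFE3, TFEB, TFEC, MTOR and RRAGD lie outside the rule for named genes and were added with their values known. FNIP2, a relative of FNIP1, rose in 3D_E by 1.77 and was lower in 3D_L than there, with a change of -1.73 (SE 0.12, limma, adjusted p = 3.32e-06). The 1 that fell was RRAGD, another such GTPase, from 46.6 ± 2.51 to 24.4 ± 5.36.

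A list around the sorting of enzymes to lysosomes by mannose 6-phosphate gave 8 of 14 that rose and 5 that fell in 3D_E. The falls were near the 32.1% of all tested genes, and 36.1% of those rose. The list also holds SORT1, SORL1, AP3B1, LMF1 and SUMF1, which do not sort by mannose 6-phosphate. Of these, SORT1 and SUMF1 rose and AP3B1 and LMF1 fell in 3D_E. The other falls there were those of AP1M1, GNPTAB (-0.40, limma, adjusted p = 0.0377) and GNPTG (-0.20, limma, adjusted p = 0.0462). GNPTAB and GNPTG lie outside the rule for named genes. In 3D_L 7 rose and 0 fell (20.3% and 16.2% of all tested genes). IGF2R, the large mannose 6-phosphate receptor, measured 9.23, 10.0 and 10.7 FPKM in the 2D libraries, 35.9, 35.3 and 33.4 in 3D_E and 21.8, 22.3 and 17.9 in 3D_L, rising by 1.71 (SE 0.10, limma, adjusted p = 4.56e-07) and 0.98 (SE 0.10, limma, adjusted p = 7.77e-05). The adaptor GGA2 rose by 1.72 (SE 0.19, limma, adjusted p = 3.13e-05) and 1.22 (SE 0.19, limma, adjusted p = 9.68e-04), and AP1M1, of the clathrin adaptor at the Golgi apparatus, changed in 3D_E by -1.08 (limma, adjusted p = 3.86e-05). M6PR, the smaller receptor, rose by 0.81 (SE 0.17, limma, adjusted p = 0.00216) in 3D_E and by 0.66 (SE 0.17, limma, adjusted p = 0.0138) in 3D_L. Against 3D_E, 4 of these genes were higher in 3D_L and 3 lower, near the 27.2% and 26.4% of all tested genes, with LMF1, a maturation factor of lipases, at 0.94 (SE 0.10, limma, adjusted p = 7.07e-05), and the adaptor GGA3 at -0.82.

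In a list of other lysosomal hydrolases and related genes, 13 of 26 tested rose and 5 fell in 3D_E (36.1% and 32.1% of all tested genes). In 3D_L 15 rose and 3 fell (20.3% and 16.2%). These counts include GBA2, HGSNAT and GLMP, which are not lysosomal hydrolases. GBA2 and GLMP rose in both groups and HGSNAT in 3D_L. SGSH, another enzyme of heparan sulfate breakdown, measured 9.20, 7.33 and 9.73 FPKM in the 2D libraries, 28.5, 36.6 and 43.5 in 3D_E and 19.5, 19.5 and 21.8 in 3D_L, with rises of 1.92 (SE 0.15, limma, adjusted p = 3.05e-06) and 1.13 (SE 0.15, limma, adjusted p = 3.75e-04). PLBD2 rose by 1.76 and 0.84. HYAL1, a hyaluronidase, rose against 2D by 1.69 in 3D_E and by 0.71 in 3D_L. It was lower in 3D_L than in 3D_E, with a change of -0.99 (SE 0.16, limma, adjusted p = 8.58e-04). GALC, which digests galactosylceramide, measured 40.7 ± 1.76 in 2D, 14.4 ± 0.843 in 3D_E and 28.5 ± 0.916 in 3D_L. It fell in both groups, with -1.44 (SE 0.08, limma, adjusted p = 3.11e-07) in 3D_E, the largest fall of this list there. In 3D_L its change was -0.50 (SE 0.08, limma, adjusted p = 0.00117). It was higher in 3D_L than in 3D_E by 0.94 (SE 0.08, limma, adjusted p = 1.48e-05).

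Among lysosomal transporters and channels 16 of 29 tested rose and 3 fell in 3D_E (36.1% and 32.1% of all tested genes), and 14 rose and 1 fell in 3D_L (20.3% and 16.2%). PQLC2, which exports cationic amino acids, measured 6.90, 6.53 and 7.11 FPKM in the 2D libraries, 40.0, 58.0 and 63.8 in 3D_E and 26.6, 28.0 and 29.4 in 3D_L, rising by 2.78 (SE 0.15, limma, adjusted p = 2.33e-07) and 1.88 (SE 0.15, limma, adjusted p = 1.24e-05). MFSD12, needed for cysteine import into lysosomes, rose by 2.20 and 1.55, and the peptide transporter ABCB9 in 3D_E by 2.10. MCOLN3, a relative of MCOLN1, rose by 1.53 (SE 0.09, limma, adjusted p = 1.80e-06) in 3D_L. ABCB9 measured 0.54 ± 0.226 in 2D, 5.71 ± 1.70 in 3D_E and 1.70 ± 0.246 in 3D_L, and MCOLN3 0.917 ± 0.0902, 2.49 ± 0.191 and 4.53 ± 0.294. Both of these genes passed the filter on low values only through the suspension libraries. SIDT2, a membrane protein linked to uptake of RNA, and CLN3, the Batten disease protein, were lower in 3D_L than in 3D_E. SIDT2 measured 4.15 ± 0.876 in 2D, 17.0 ± 4.76 in 3D_E and 7.47 ± 0.105 in 3D_L, and CLN3 1.87 ± 0.535, 9.27 ± 3.09 and 3.97 ± 0.108. Both rose against 2D in each suspension group.

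For fusion and positioning of lysosomes, 17 of 23 tested genes rose and 0 fell in 3D_E (36.1% and 32.1% of all tested genes), and 9 rose and 0 fell in 3D_L (20.3% and 16.2%). Of the 23, 17 were lower in 3D_L than in 3D_E and 2 higher (26.4% and 27.2%). VAC14, a scaffold for the lipid kinase PIKFYVE, measured 60.8, 62.1 and 63.6 FPKM in the 2D libraries, 235, 269 and 299 in 3D_E and 131, 129 and 110.1 in 3D_L, rising by 2.08 (SE 0.11, limma, adjusted p = 1.86e-07) and 0.97 (SE 0.11, limma, adjusted p = 1.18e-04). VPS33A, a subunit of the HOPS tether, rose by 1.63 and 0.87, and RILP, which links lysosomes to dynein, by 1.67 and 0.80. LYST, the Chediak-Higashi protein, rose against 2D by 1.48 in 3D_E and by 0.45 in 3D_L. It was lower in 3D_L than in 3D_E, with a change of -1.03 (SE 0.14, limma, adjusted p = 3.20e-04). RAB7B had the largest rise of this list in 3D_L, 1.14 (SE 0.09, limma, adjusted p = 7.79e-06), and rose in 3D_E by 0.62.

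Assembly factors and regulators of the pump form the last list. Of 8 tested, 6 rose and 0 fell in 3D_E with a median of 0.60 (36.1% and 32.1% of all tested genes). In 3D_L, 2 rose, near the 20.3% of all tested genes, and 0 fell, with a median of 0.17. OXR1, whose TLDc domain family is known to act on the pump, rose by 1.18 (SE 0.13, limma, adjusted p = 3.27e-05) and 0.49 (SE 0.13, limma, adjusted p = 0.0172). DMXL1, of the complex that rejoins V1 and V0, rose in 3D_E by 1.05 (SE 0.12, limma, adjusted p = 2.91e-05). NCOA7, of the same family as OXR1, was lower in 3D_L than in 3D_E, with a change of -0.52 (SE 0.11, limma, adjusted p = 0.00302). RNASEK, a small protein of the V0 part, rose by 0.82 and 0.54. VMA21, not called and outside the rule, which assembles V0 in the endoplasmic reticulum, measured 53.6 ± 4.08, 51.6 ± 12.1 and 45.9 ± 2.63.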

How the data were processed

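Gene expression was measured by RNA sequencing in 9 libraries of DF-1 cells, 3 each of 2D, 3D_E and 3D_L. The authors deposited 1 table of FPKM per gene, and its values were used as deposited. The tools HISAT2 2.0.5, DESeq2 and R 3.4.2 and the build GRCg6a are named, with no role, per the submitters' processing notes. Of the table's 94 columns, 82 carry no name and were not used, and 1 line that names no gene was left out.

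Genes that reached 1 FPKM in 3 or more libraries (10436 of 15294) were compared on log2(FPKM + 1) with limma 3.58.1 in R 4.3.3, in 1 fit over all 9 libraries (6 residual degrees of freedom, trended spread), with Benjamini-Hochberg adjusted p-values over all genes tested in each of the 3 comparisons. The procedure was tested on simulated data that gave each gene the same spread in every group. In the real libraries 3D_E varied most, and the simulation does not cover this. FPKM holds no counts, so depth and counting error are unknown. All 47 genes were matched by gene number to a RefSeq table, used only to check names, and 1 of them, listed as ATP6V1AL, has another symbol there.

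The lysosomal genes and all lists were chosen with earlier results of these data known. Within each role, values in every library are given for the called genes with the largest changes, up to 4 against 2D and up to 3 between the suspension groups, and for LAMP1 and LAMP2. Up to 3 changed genes are named from each further list. A gene that this rule names is not reported here. The 20 alternatives changed the pseudocount (0.1 or 5), filter (none, or 5 FPKM), scaling, spread model, libraries in the fit and replicate block, and left out each library. Figures were drawn with matplotlib 3.10.9.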

Additional observations from a re-analysis of the deposited data

How the results depend on the processing

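Each count and median was recomputed under 20 alternatives. Against 2D, 31 to 39 lysosomal genes rose and 1 to 2 fell in 3D_E when 1 library was left out, with a median change of 0.79 to 0.93, and in 3D_L 25 to 35 rose and 0 to 0 fell, with a median of 0.63 to 0.69. Between 3D_L and 3D_E, 2 to 6 were higher and 12 to 28 lower in 3D_L, with a median of -0.36 to -0.18. With no filter on low values, 2 fell in 3D_E and 1 in 3D_L, as more genes enter the test. The 3D_E median was 1.01 after quantile normalization. The 3D_L median was 0.57 with a pseudocount of 5, 0.59 with no filter, 0.74 after scaling to equal sums and 0.58 after a shift to the same median. Over all tested genes the 3D_L medians under these settings were 0.02, 0.01, 0.09 and -0.05, beside 0.03 in the main fit. No median of the lysosomal genes changed sign under these alternatives. Over the 53 results for genes named by rule, 1025 values kept their side of the threshold, 25 lost the call, and 0 changed direction. ATP6V0D2 was tested under 16 alternatives and GAA under 19. The 53 were chosen as the called results with the largest changes, which favours kept calls. Less stable calls lay outside them, such as that of ATP6V1H in 3D_E, held under 4 of 20 alternatives. Replicate numbers showed no consistent pairing of the libraries. Deviations of same-numbered libraries correlated between -0.40 and 0.18, and 1 of 9 pairs, replicate 3 of 3D_E and of 3D_L, was above 0.1. In both other groups at once, 0 of 9 libraries correlated best with their own number. With 3 libraries a group, these correlations cannot exclude a pairing. With the replicate number as a block, 35 rose and 1 fell in 3D_E, 29 rose and 0 fell in 3D_L, and 3 were higher and 15 lower in 3D_L than in 3D_E. FPKM without counts sets no depth limit for low genes such as ATP6V0D2.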
